A study of Mus musculus with 4 samples.

Results

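Thy1 and 5 Ly6 genes (Ly6a, Ly6c1, Ly6c2, Ly6d and Ly6e) encode small proteins that sit on the lymphocyte surface by a glycosylphosphatidylinositol (GPI) lipid anchor. They were taken by name, matched to NCBI Gene numbers, and all 6 were found among 17723 genes listed in any library. All 6 were at 5 FPKM or more in at least 1 library and so were among the 9074 genes tested. The libraries come from natural killer (NK) cells of mouse spleen, sorted by surface DNAM-1, an activating receptor encoded by Cd226. There were 4 groups of 1 library each: DNAM-1+ cells of AML spleen, DNAM-1- cells of AML spleen, DNAM-1+ cells of normal spleen and DNAM-1- cells of normal spleen.

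All mice were C57BL/6J, aged 6 to 8 weeks per the labels. The AML libraries were made 17 days after transfer of GFP+ MLL-AF9 leukaemia cells into mice that had not been irradiated, and the normal ones at day 0. The labels give no gate other than NK cell and DNAM-1, no purity, and no number of mice behind a library. A difference between 2 libraries therefore has no replicate check, and only the mean difference over both spleens, or over both subsets, was tested.

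The Ly6 proteins are built on the LU domain, a short fold held by disulphide bonds, and most of their mouse genes lie in a cluster on chromosome 15. Thy1 lies on chromosome 9 and is an immunoglobulin superfamily protein, so it shares the anchor of the Ly6 proteins and not their fold. Having no cytoplasmic tail, these proteins are known to act through lipid rafts and Src-family kinases. Several are used as surface markers: Thy-1 of T cells, early NK cells and innate lymphoid cells, Ly6C of monocytes and of mature NK cells, Sca-1 (Ly6a) of blood stem cells and activated lymphocytes. Ly6a, Ly6c2 and Ly6e are known to be induced by interferons.

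Ly6c1 and Ly6c2 are close copies of each other, which bears on how far their values can be read apart. Their coding sequences (from GENCODE M21 transcripts, chromosome 15, minus strand, GRCm38) are both 396 bases long. Coding bases 1 to 120 are shown 5′ to 3′ because 6 of the 9 bases that differ lie there, in capitals.
Ly6c1: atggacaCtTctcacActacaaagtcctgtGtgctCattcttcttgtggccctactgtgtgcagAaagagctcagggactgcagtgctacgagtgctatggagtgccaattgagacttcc
Ly6c2: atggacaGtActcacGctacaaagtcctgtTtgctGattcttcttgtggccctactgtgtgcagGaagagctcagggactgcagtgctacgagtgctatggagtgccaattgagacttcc
The 2 were identical at 387 of 396 bases (97.7%), with an unbroken shared run of 188 bases. Over the whole mRNAs, 31.7% of the 50-base words of Ly6c1 also occurred in Ly6c2. The next closest pair among the genes aligned, Ly6a and Ly6i, had 86.4% identity and a longest shared run of 80 bases. Ly6d and Ly6e had 52.5% identity to each other and shared no run over 8 bases.

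The sort was visible in Cd226, which had 36.1 FPKM (DNAM-1+) against 0.58 FPKM (DNAM-1-) in AML spleen, and 38.6 (DNAM-1+) against 0.45 FPKM (DNAM-1-) in normal spleen. The NK genes Ncr1 and Klrb1c (NKp46 and NK1.1) lay between 318 and 597 FPKM in the 4 libraries. The libraries listed 15460 to 16161 genes each. An estimate of depth, made from how finely low values are graded, gave 9000000 to 9400000 fragments.

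The members fell into 3 patterns across the sort. Thy1 was more than 3-fold higher in DNAM-1+ than in DNAM-1- cells, Ly6d and Ly6a were more than 3-fold lower, and Ly6e, Ly6c2 and Ly6c1 differed by at most 1.36-fold in either spleen. limma, fitted to all 4 libraries with subset and spleen as terms, called 4 of the 6 members for the mean subset difference at an adjusted p below 0.05 (Benjamini-Hochberg over all genes). Over all genes tested 15.7% were called: 7.35% rose, Thy1 among them, and 8.38% fell, with Ly6d, Ly6a and Ly6e among those. These shares of all genes also stand beside each list count for the sort below. In each spleen 1 member was at least 2-fold higher and 2 were at least 2-fold lower. The shares of all genes were 0.894% higher and 3.19% lower in AML spleen, and 1.28% and 3.97% in normal spleen. The same 3 members passed that fold in both spleens, as 0.584% of genes did upward and 3.0% downward.

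**Figure D1:**
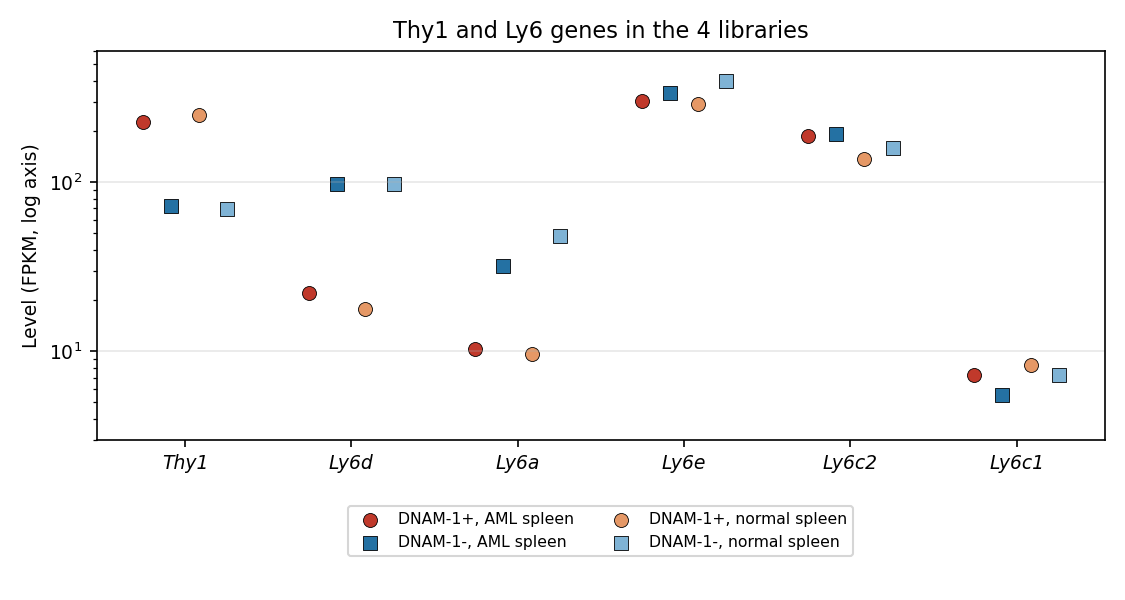
Level of each of the 6 genes in FPKM (log axis) in each of the 4 libraries, 1 point a library with no error bar because each group has 1 library. Thy1 has 228 and 251 FPKM in the DNAM-1+ libraries of AML and normal spleen, against 72.0 and 69.1 FPKM in the DNAM-1- ones, and Ly6d and Ly6a are the reverse.

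Thy1, the gene of the Thy-1 (CD90) antigen, had 228 FPKM in DNAM-1+ cells of AML spleen, against 72.0 FPKM in their DNAM-1- counterparts. In normal spleen the DNAM-1+ value was 251 FPKM, against 69.1 FPKM without DNAM-1. Libraries of the same subset, which come from different spleens and are not replicates, lay close together. The ratio was 3.16 in AML and 3.63 in normal spleen. On the log2(FPKM + 1) scale, used for every log2 value below, the ratio was 1.65 in AML spleen, where 31 of the genes tested had a higher one, and 1.84 in normal spleen, where 22 had. Over both spleens Thy1 rose by 1.75 (SE 0.071; adjusted p = 3.71e-05 by limma), with the same direction in 2 of 2 spleens. In bulk libraries such as these, fewer cells of a type and less RNA per cell cannot be told apart.

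Thy1 is also a T cell gene, and most T cell markers tested moved the same way. Of 12 T cell markers, 6 were tested and 5 rose, where 7.35% of all genes rose. Of the 5, 2 (Cd3e and Trat1) reached 5 FPKM in DNAM-1+ libraries only and so had to differ. With these included, the median log2 ratio of the 6 was 1.40 in AML and 1.38 in normal spleen. The summed level of all 12 was 82.9 FPKM (DNAM-1+) against 31.9 FPKM (DNAM-1-) in AML spleen, and 88.1 (DNAM-1+) against 36.85 FPKM (DNAM-1-) in normal spleen. Cd3e, part of the T cell receptor complex, had 8.95 FPKM with DNAM-1 against 1.25 FPKM without it in AML spleen. In normal spleen Cd3e had 9.22 (DNAM-1+) against 1.74 FPKM (DNAM-1-). Cd3g, another part of that complex, reached 5 FPKM in both subsets. It had 32.4 (DNAM-1+) against 9.66 FPKM (DNAM-1-) in AML spleen, and 32.4 (DNAM-1+) against 9.87 FPKM (DNAM-1-) in normal spleen. Cd8b1, a coreceptor chain of killer T cells, had 0.67 FPKM (DNAM-1+) against 2.11 FPKM (DNAM-1-) in AML spleen, and 2.28 (DNAM-1+) against 5.32 FPKM (DNAM-1-) in normal spleen, and was not called (limma adjusted p = 0.117). None of the 12 markers was at 0 in any library. The summed T cell markers lay below Thy1 alone in each library, on the FPKM scale. The level of each gene per T cell is not known here, so this does not measure the T cell share of Thy1. The part of T cells in the Thy1 difference was not tested.

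Markers of the less mature NK stage and of type 1 innate lymphoid cells (ILC1), 2 kinds of cell that are known to carry Thy-1, were set beside it. Of 16 immature NK stage genes 12 rose and 1 fell, where 7.35% of all genes rose and 8.38% fell. The list medians were 0.84 in AML and 0.70 in normal spleen. Il7r, the interleukin-7 receptor, had the highest coefficient of both lists (3.68, SE 0.083). It is 1 of the 12, but it reached 5 FPKM in DNAM-1+ libraries only and so had to differ. Of 6 tested ILC1 markers 4 rose, but all 4 reached 5 FPKM in DNAM-1+ libraries only and so had to differ, and the count supports nothing. The ILC1 list summed to 96.0 FPKM (DNAM-1+) against 39.7 FPKM (DNAM-1-) in AML spleen, and 91.65 (DNAM-1+) against 40.55 FPKM (DNAM-1-) in normal spleen. Of 16 mature NK stage genes 1 rose and 6 fell, with medians of -0.18 in AML and -0.15 in normal spleen. Their part in the Thy1 difference was not tested.

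Ly6d, whose product marks lymphoid progenitors that enter the B cell path and stays on B cells, had 22 FPKM in DNAM-1+ cells of AML spleen, against 97.4 FPKM where DNAM-1 was lacking. In normal spleen the values were 17.8 FPKM with DNAM-1 and 97.9 FPKM without it. The libraries without DNAM-1 were the high ones in both spleens and nearly equal to each other. The level was 4.43-fold lower in DNAM-1+ cells of AML spleen and 5.49-fold lower in those of normal spleen (log2 ratios -2.10 and -2.39). Over both spleens Ly6d fell by 2.25 (SE 0.0855; adjusted p = 3.22e-05 by limma), lower in 2 of 2 spleens, the largest fall among the members.

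B cell markers fell beside Ly6d. All 12 were tested and all 12 fell, 1 of them at 5 FPKM in DNAM-1- libraries only. The medians were -1.95 in AML and -2.14 in normal spleen, against 0.01 in each over all genes tested. Their summed level was 647.5 FPKM (DNAM-1+) against 2461 FPKM (DNAM-1-) in AML spleen, and 558 (DNAM-1+) against 2571 FPKM (DNAM-1-) in normal spleen. The coefficients of the 12 ran between those of Cd79a, a chain of the B cell receptor (-2.30), and Cd22 (-1.75), and the Ly6d coefficient lies within that range. Of 5 plasma cell markers tested 4 fell, 1 of them at 5 FPKM in DNAM-1- libraries only. The largest fall was that of Jchain (-3.18), which links antibody subunits. The plasma cell list, of which Tnfrsf17 was at 0 in a library, summed to 80.2 FPKM (DNAM-1+) against 322 FPKM (DNAM-1-) in AML spleen, and 73.9 (DNAM-1+) against 213 FPKM (DNAM-1-) in normal spleen. Plasmacytoid dendritic cells are also known to carry Ly6d, and 3 of their 5 tested markers fell, with Klk1 at 0 in a library. These were Spib, also a B cell gene, Irf8, also on the mature NK list, and Tcf4. Runx2 and Cox6a2 were not called, and Siglech and Ccr9, among those too low to test, were at or below 0.48 FPKM. That list summed to 232 FPKM (DNAM-1+) against 331 FPKM (DNAM-1-) in AML spleen, and 228 (DNAM-1+) against 342 FPKM (DNAM-1-) in normal spleen. Irf8 alone had 186 (DNAM-1+) against 238 FPKM (DNAM-1-) in AML spleen, and 185 (DNAM-1+) against 248 FPKM (DNAM-1-) in normal spleen. No B cell marker was at 0 in any library. The part of B cells, plasma cells and plasmacytoid dendritic cells in the Ly6d difference was not tested.

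Ly6a, the gene of Sca-1, had 10.3 FPKM in DNAM-1+ cells of AML spleen, against 32.1 FPKM where DNAM-1 was lacking. In normal spleen the values were 9.70 FPKM with DNAM-1 and 48.2 FPKM without it. The pair of libraries without DNAM-1 lay further apart than the pair with it. The level was 3.12-fold lower in DNAM-1+ cells of AML spleen and 4.96-fold lower in those of normal spleen (log2 ratios -1.55 and -2.20). Over both spleens Ly6a fell by 1.88 (SE 0.145; adjusted p = 0.000452 by limma), lower in 2 of 2 spleens. At an estimated 74 and 70.0 reads in the DNAM-1+ libraries, counting error alone spans 0.38 to either side of the log2 ratio in AML and 0.37 in normal spleen.

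Markers of several other cells fell with Ly6a, as given for B and plasma cells above. Of 10 non-classical monocyte markers 9 fell, 2 of them at 5 FPKM in DNAM-1- libraries only, with medians of -2.26 in AML and -2.46 in normal spleen. The 10 summed to 591 FPKM (DNAM-1+) against 874.5 FPKM (DNAM-1-) in AML spleen, and 524 (DNAM-1+) against 892 FPKM (DNAM-1-) in normal spleen. Spn, also on the mature NK list, was not called. Alone it had 428 (DNAM-1+) against 424 FPKM (DNAM-1-) in AML spleen, and 382 (DNAM-1+) against 371 FPKM (DNAM-1-) in normal spleen. The 7 tested macrophage markers fell, of which 4 reached 5 FPKM in DNAM-1- libraries only and so had to differ, and the whole list had sums of 67.8 FPKM (DNAM-1+) against 322.5 FPKM (DNAM-1-) in AML, and 61.3 (DNAM-1+) against 407 FPKM (DNAM-1-) in normal spleen. Of 5 tested classical monocyte markers 3 fell, among them Lyz2 (-2.78) and Csf1r (-2.65), and Ccr2 and S100a4, which NK cells are known to express as well, rose. Among the 3 classical monocyte markers that fell, 1 reached 5 FPKM in DNAM-1- libraries only. Of 4 tested neutrophil markers 3 fell, again 1 of them at 5 FPKM in DNAM-1- libraries only. No marker of these 4 lists was at 0 in any library. Their part in the Ly6a difference was not tested.

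Among stem and leukaemia progenitor markers, which Sca-1 would accompany on blood stem cells, Kit, which is also on the immature NK list, rose (1.19, limma adjusted p = 0.000281) and Myb, the other of 2 tested, was not called (0.20, adjusted p = 0.172). Hoxa10 was at 0 in at least 1 library. Of those too low to test, Ctsg, Cd34, Elane and Hoxa9 were at or below 1.68 FPKM, each higher in both AML libraries than in both normal ones. Of the endothelial markers, another cell known to carry Sca-1 and Ly6C, Cdh5, Cldn5, Esam, Robo4, Tek and Tie1 were each at 0 in at least 1 library, and Pecam1 alone was tested (0.060, limma adjusted p = 0.623).

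Ly6e, also called Sca-2 or TSA-1, a protein of thymocytes that is induced by interferons and known to restrict coronavirus entry, was the most abundant member in every library. It had 302 FPKM (DNAM-1+) against 339 FPKM (DNAM-1-) in AML spleen, and 291 (DNAM-1+) against 395 FPKM (DNAM-1-) in normal spleen. The DNAM-1- library was the higher in each spleen, by 1.12-fold in AML and 1.36-fold in normal spleen. Over both spleens Ly6e fell by 0.30 (SE 0.079; adjusted p = 0.0498 by limma), lower in 2 of 2 spleens. That call stands at the threshold: without limma's mean-variance trend the adjusted p was 0.153, and it was lost in 4 of 9 alternative settings.

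Ly6c2 encodes most of the Ly6C antigen of monocytes, and Ly6C is also gained late in NK maturation. Its level was 188 FPKM (DNAM-1+) against 192 FPKM (DNAM-1-) in AML spleen, and 137 (DNAM-1+) against 159 FPKM (DNAM-1-) in normal spleen. The 2 subsets differed little and the AML libraries were the higher ones. The log2 subset ratio was -0.036 in AML and -0.21 in normal spleen, and the mean difference was not called (-0.13, SE 0.068, limma adjusted p = 0.281). Among classical monocyte markers, 3 fell as given above, and Ccr2, a chemokine receptor that Ly6C+ monocytes carry, had 113 FPKM (DNAM-1+) against 86.6 FPKM (DNAM-1-) in AML, and 122 (DNAM-1+) against 98.4 FPKM (DNAM-1-) in normal spleen.

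Ly6c1 was the lowest member in every library. It had 7.28 FPKM (DNAM-1+) against 5.49 FPKM (DNAM-1-) in AML spleen, and 8.35 (DNAM-1+) against 7.24 FPKM (DNAM-1-) in normal spleen. The log2 subset ratios of 0.35 and 0.18 lie within the counting error of 0.59 and 0.53 that an estimated 41 to 62 reads allow. The mean difference was not called (0.27, SE 0.11, limma adjusted p = 0.173). Ly6c1 was 3.73% (DNAM-1+) against 2.77% (DNAM-1-) of the summed Ly6c1 and Ly6c2 level in AML spleen, and 5.75% (DNAM-1+) against 4.36% (DNAM-1-) in normal spleen. With the coding sequences identical at 387 of 396 bases, a read from the shared stretches can be given to either gene, so the small Ly6c1 values are uncertain. The summed level, 195 FPKM (DNAM-1+) against 198 FPKM (DNAM-1-) in AML and 145 (DNAM-1+) against 166 FPKM (DNAM-1-) in normal spleen, does not depend on that split.

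The order of the members by level differed between the subsets and not between the spleens. In both DNAM-1+ libraries it was Ly6e, Thy1, Ly6c2, Ly6d, Ly6a and Ly6c1. In both DNAM-1- libraries it was Ly6e, Ly6c2, Ly6d, Thy1, Ly6a and Ly6c1. With 1 library a group there is no spread between replicates to set neighbours in this order apart. The 6 genes together summed to 757 FPKM (DNAM-1+) against 738 FPKM (DNAM-1-) in AML spleen, and to 715 (DNAM-1+) against 777 FPKM (DNAM-1-) in normal spleen.

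**Figure D2:**
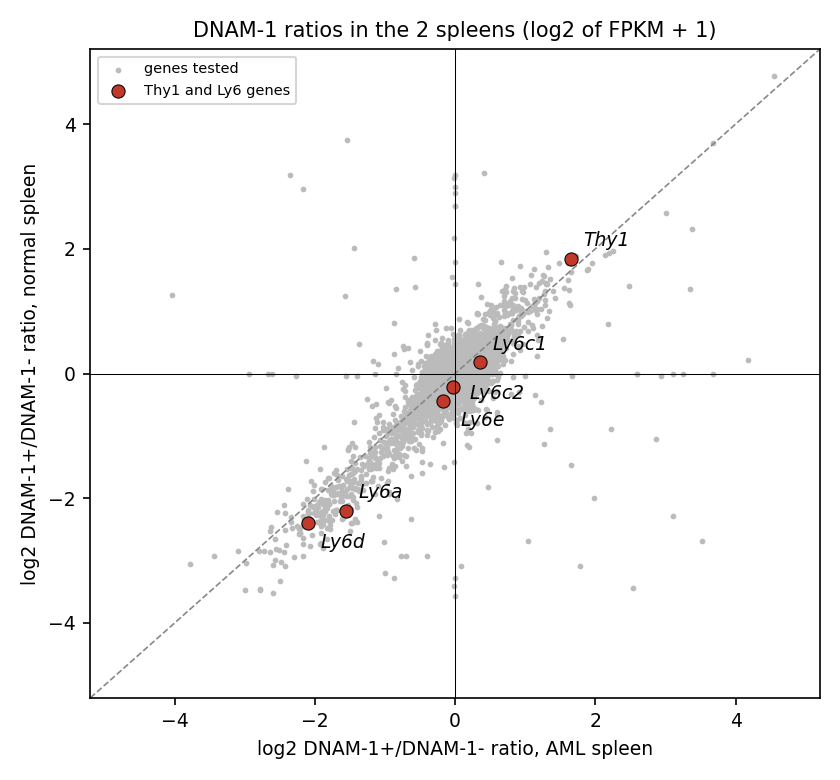
The log2 ratio of DNAM-1+ to DNAM-1- cells in AML spleen (x axis) against that in normal spleen (y axis), for all genes tested (grey) and the 6 members (red), with a dashed line of equal ratios. Thy1 lies at 1.65 and 1.84, Ly6d at -2.10 and -2.39, and Ly6c2, Ly6e and Ly6c1 lie in the main cloud.

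The size of the subset difference was compared between the spleens as a value, since the interaction leaves no residual degree of freedom to test. The ratio of Ly6a was 0.65 higher on the log2 scale in AML than in normal spleen, and 97.6% of the genes tested had a smaller difference in size. The same difference was -0.20 for Thy1, 0.30 for Ly6d, 0.27 for Ly6e, 0.18 for Ly6c2 and 0.17 for Ly6c1. The central 90% of all genes ran from -0.32 to 0.40, so Ly6a alone of the 6 lay outside it.

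The AML comparison asks whether the NK cells of a leukaemic spleen carry these genes at another level than those of a normal spleen. No member was called for the mean AML difference over both subsets (limma, 0 of 6, where 0.353% of all genes were called, 0.0661% higher and 0.287% lower). At an unadjusted p below 0.05 there was 1, Ly6c2. No member was 2-fold higher or lower in either subset, where 0.311% and 0.346% of genes were 2-fold higher and lower in DNAM-1+ cells, and 0.193% and 0.397% in DNAM-1- cells.

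Ly6c2 had the largest mean AML difference of the 6, an FPKM ratio of 1.37 with DNAM-1 and 1.21 without it. Its log2 ratios of 0.45 and 0.27 were exceeded by 187 and 324 of the 9074 genes. The mean was 0.36 (SE 0.068, limma adjusted p = 0.121, higher in 2 of 2 subsets), with an adjusted p between 0.0385 and 0.673 over 9 alternatives, of which 2 called it. The summed level of both Ly6c genes was 195 FPKM in AML and 145 FPKM in normal spleen for DNAM-1+ cells, and 198 FPKM in AML and 166 FPKM in normal spleen for DNAM-1- cells. Most markers of the stem and leukaemia progenitor list and of the conventional dendritic cell list also had a higher level in the AML libraries. The neutrophil, macrophage and monocyte lists were mixed. Of the 8 conventional dendritic cell markers, 6 had a higher level in AML in both subsets and 0 a lower one. Mpo, a granule enzyme of myeloid progenitors, had 1.58 and 2.29 FPKM in DNAM-1+ and DNAM-1- cells from AML spleen, against 0.25 and 0.26 FPKM in those from normal spleen. Of the 10 stem and leukaemia progenitor markers, 8 had a higher level in AML in both subsets and 1, Myb, a lower one. Myb had 12.4 FPKM in AML against 16.1 FPKM in normal spleen with DNAM-1, and 9.97 against 14.9 FPKM without it. For comparison, 7 of the 10 NK cell markers were higher in both subsets and 1 was lower. Of the 16 mature NK stage genes, 9 were higher in both subsets and 3 were lower. Their median log2 AML ratio was 0.12 with DNAM-1 and 0.20 without it. Higher and lower were 3 and 5 of 9 neutrophil markers, 2 and 3 of 9 macrophage markers, and 3 and 2 of 10 non-classical monocyte markers. Of the 10 classical monocyte markers, 3 had a higher level in both subsets and 1 a lower one, and Cd209a, a dendritic cell marker, had 3.88 FPKM in AML against 1.03 FPKM in normal spleen with DNAM-1, and 10.3 FPKM in AML against 3.90 FPKM in normal spleen without it. Their part in the Ly6c2 difference was not tested.

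Ly6a was the member that differed most in DNAM-1- cells, at 32.1 FPKM in AML and 48.2 FPKM in normal spleen. That log2 ratio of -0.57 is larger than its counting error of 0.24, and 128 genes had a lower one. In DNAM-1+ cells Ly6a was at 10.3 FPKM in AML and 9.70 FPKM in normal spleen. The 7 tested macrophage markers, of which 4 reached 5 FPKM in DNAM-1- libraries only, had a median log2 AML ratio of 0.24 with DNAM-1 and -0.33 without it. Not all were below 0 without it, as Adgre1 had 0.12. Such medians were 0.38 and -0.18 for classical monocyte, 0.17 and -0.18 for non-classical monocyte, and 0.17 and -0.084 for B cell markers. For neutrophil markers they were -0.23 and -0.35, and for plasma cell markers 0.16 and 0.032. The part of these cells in the Ly6a difference was not tested. In DNAM-1+ cells the other log2 AML ratios were -0.14 for Thy1, 0.29 for Ly6d, 0.050 for Ly6e and -0.18 for Ly6c1. In DNAM-1- cells they were 0.059 for Thy1, -0.0073 for Ly6d, -0.22 for Ly6e and -0.34 for Ly6c1. The ratios of Thy1, Ly6a, Ly6d and Ly6e had opposite signs in the subsets, as did those of 40.2% of all genes.

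Because several Ly6 genes respond to interferon, interferon-stimulated genes were set beside them. Of 36 such genes 31 were tested, and 10 fell and 0 rose in AML relative to normal spleen (limma over all genes), with a median log2 AML ratio of -0.55 with DNAM-1 and -0.51 without it. Rtp4 and Ifit3, both induced by type I interferon, had 15.6 and 6.62 FPKM in DNAM-1+ cells of AML spleen, against 35.7 and 21.1 FPKM in those of normal spleen. The values of Ly6c2 lie on the other side of 0, and those of Ly6e, at 0.050 with DNAM-1 and -0.22 without it, lie above the list's median in both subsets. Ly6a, at 0.077 with DNAM-1 and -0.57 without it, lies above that median in DNAM-1+ cells and below it in DNAM-1- cells. For the DNAM-1 sort the same list had 0 genes that rose and 4 that fell, where 7.35% of all genes rose and 8.38% fell. Among the 4, 2 reached 5 FPKM in DNAM-1- libraries only. The list medians were 0.0048 in AML and -0.0053 in normal spleen.

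**Figure D3:**
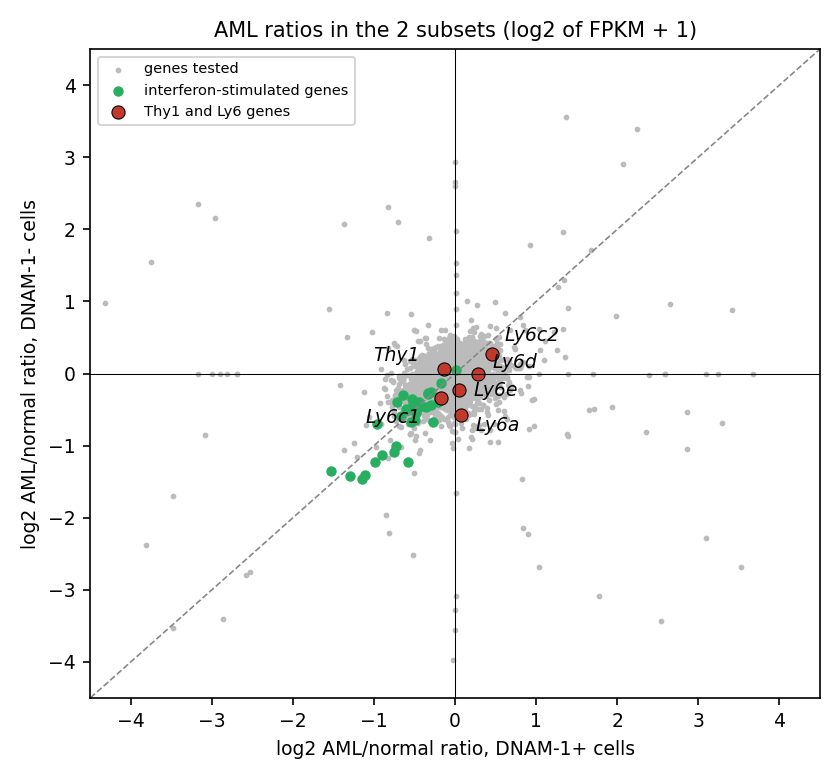
The log2 ratio of AML to normal spleen in DNAM-1+ cells (x axis) against that in DNAM-1- cells (y axis), for all genes tested (grey), the interferon-stimulated genes (green) and the 6 members (red), with a dashed line of equal ratios. Most green points lie below 0 on both axes, and Ly6c2 lies at 0.45 and 0.27.

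Other members of the family were then read from a list of 43 LU-domain genes. Of these, 22 were listed in any library, 12 reached 1 FPKM and 8 were tested, and 6 of the 8 fell and 0 rose in DNAM-1+ cells (limma), where 8.38% of all genes fell. Beside Ly6d, Ly6a and Ly6e these were Plaur, Ly6i and Lynx1. The last 3 reached 5 FPKM in DNAM-1- libraries only and so had to differ, and their values are given as a description. Plaur, the receptor of urokinase, had 3.74 FPKM (DNAM-1+) against 13.7 FPKM (DNAM-1-) in AML, and 3.48 (DNAM-1+) against 16.5 FPKM (DNAM-1-) in normal spleen.

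Ly6i, which lies next to Ly6a, had 2.71 FPKM (DNAM-1+) against 6.14 FPKM (DNAM-1-) in AML spleen, and 2.21 (DNAM-1+) against 11.3 FPKM (DNAM-1-) in normal spleen. As for Ly6a, its highest value was in DNAM-1- cells of normal spleen. The shared run of 80 bases is long enough for some reads to be given to either gene. Lynx1, known from neurons as a modulator of nicotinic receptors, had 1.35 FPKM (DNAM-1+) against 4.98 FPKM (DNAM-1-) in AML, and 1.20 (DNAM-1+) against 5.43 FPKM (DNAM-1-) in normal spleen. The neutrophil antigen gene Ly6g had 2.16 FPKM (DNAM-1+) against 2.57 FPKM (DNAM-1-) in AML, and 1.08 (DNAM-1+) against 1.76 FPKM (DNAM-1-) in normal spleen. Ly6m, Ly6f and Ly6k reached at most 2.03, 1.32 and 1.04 FPKM.

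Neighbours on chromosome 15 differed among themselves. Of 13 protein-coding genes from Ly6d to Ly6c2 in the RefSeq order, 12 were listed and 6 were tested, all of them Ly6 genes. Along the chromosome the subset coefficients were -2.25 (Ly6d), -0.30 (Ly6e), -1.44 (Ly6i), -1.88 (Ly6a), 0.27 (Ly6c1) and -0.13 (Ly6c2). Ly6i and Ly6a lie between Ly6e and Ly6c1, whose coefficients were smaller in size.

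Proteins that share the GPI anchor and not the fold moved in both directions. Of 33 such leukocyte genes 8 were tested, 1 rose and 2 fell, where 7.35% of all genes rose and 8.38% fell. The list medians were 0.12 in AML and 0.10 in normal spleen. Cd160, an activating NK receptor, rose (limma adjusted p = 8.29e-05), with 61.4 and 63.8 FPKM in DNAM-1+ cells of AML and normal spleen, against 24.5 and 22.7 FPKM in DNAM-1- cells. Cd24a, a B cell antigen, fell (limma adjusted p = 3.42e-05), with 14.55 and 10.1 FPKM in DNAM-1+ cells of AML and normal spleen, against 64.2 and 55.8 FPKM in DNAM-1- cells. Cd55, which limits complement on the cell surface, fell too (limma adjusted p = 0.000183), with 23.55 and 30.6 FPKM against 69.6 and 73.2 FPKM in the same libraries. Cd52 and Cd48, abundant on all lymphocytes, had coefficients of 0.21 and 0.073 and were not called.

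Genes that build and attach the anchor showed 0 rises and 0 falls among 22 tested (limma over all genes), with medians of 0.069 in AML and -0.0099 in normal spleen. Pigh had the highest coefficient (0.39, limma adjusted p = 0.0665) and Pigf the lowest (-0.26, adjusted p = 0.0853). Of 17 tested Src-family and lipid raft genes 4 rose and 4 fell. Over all genes tested, the shares for both of these lists were 7.35% that rose and 8.38% that fell. Lck, the kinase of T and NK cells with which GPI-anchored proteins associate, rose (limma adjusted p = 0.00323), with 336 FPKM in DNAM-1+ cells of each spleen, against 245 and 234 FPKM in DNAM-1- cells of AML and normal spleen. Blk, a kinase of B cells, fell by 2.10 on the log2 scale (limma adjusted p = 7.68e-05).

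**Figure D4:**
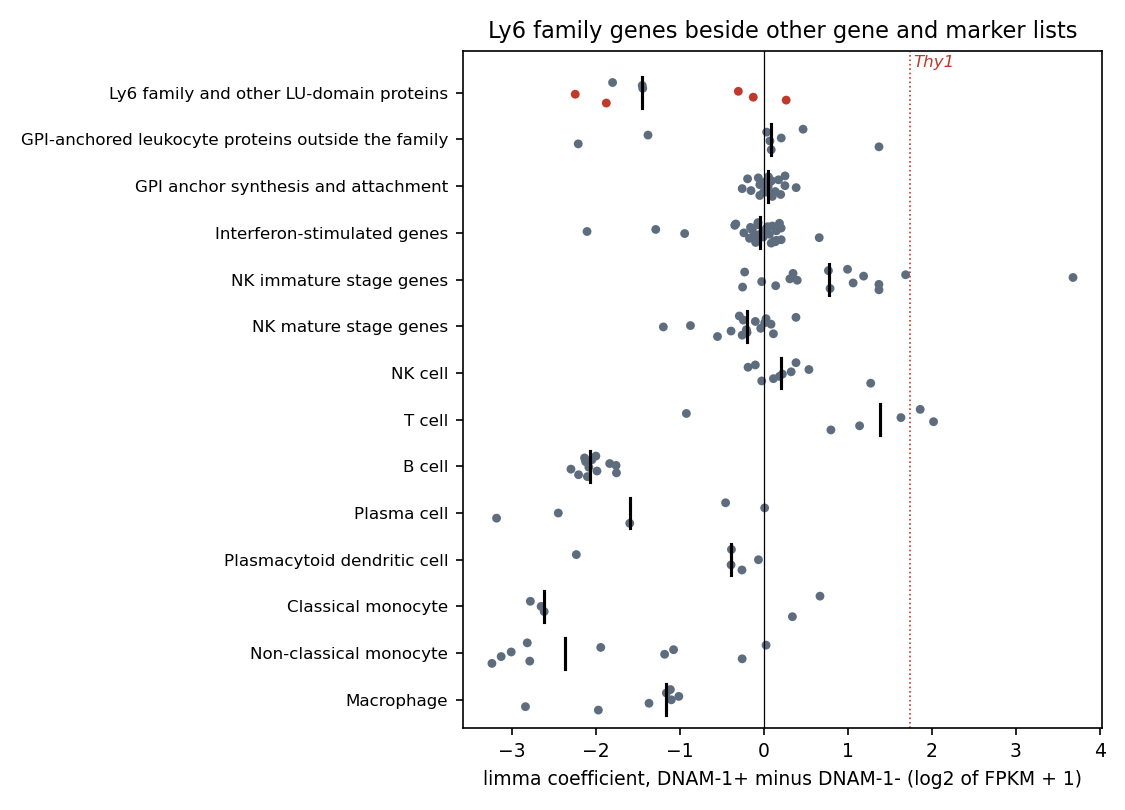
The limma coefficient for DNAM-1+ minus DNAM-1- cells (x axis, log2 scale) of each tested gene of 14 lists (rows), with the median of each list as a black bar, Ly6 members in red and Thy1 as a dotted line. Thy1 (1.75) lies above the T cell median of 1.39, and Ly6d (-2.25) within the B cell range of -2.30 to -1.75. The ILC1 list, which is not plotted, had a median of 1.40. Of 6 tested genes each, 2 T cell and 4 ILC1 markers reached 5 FPKM in DNAM-1+ libraries only. The immature NK list had a median of 0.78, with Klrb1b at 1.69.

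The genes with the profile most like each member over the 4 libraries were found among 8657 other protein-coding genes, by the root mean square difference of centred log2 values. With only 4 libraries, 2 of each subset, this is a description. For Thy1 they were Cd3g (0.080), a T cell receptor chain, Ikzf2 (0.11), a transcription factor of the Ikaros family, and Trat1 (0.11), a T cell adaptor. For Ly6d they were Cd180, a receptor of B cells, Spib, a transcription factor of B cells and plasmacytoid dendritic cells, and Cd79a, at 0.023, 0.025 and 0.028. For Ly6a they were Vpreb3, a B lineage gene (0.027), the Ly49 family gene Klra2 (0.068) and Csf2ra, a chain of the GM-CSF receptor (0.10). For Ly6e they were Hmces, Dclre1b and Ndst2 (0.016, 0.018 and 0.019), for Ly6c2 Gstm1 (0.022), Ier2 (0.027) and Acaa1a (0.028), and for Ly6c1 Xrcc3 (0.015), Rfc3 (0.028) and Atp5g3 (0.034). Of these genes, Ikzf2 and Trat1 reached 5 FPKM in DNAM-1+ libraries only, and Vpreb3, Klra2 and Dclre1b in DNAM-1- libraries only. The direction of these was set by the filter, so their likeness to a member supports nothing.

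Of the remaining marker lists, NK cell markers had 4 of 10 that rose and 0 that fell, led by Cd7 (1.27). Over all genes 7.35% rose and 8.38% fell. Of 2 tested ILC2 and ILC3 markers Gata3 rose and Ccr6 fell, of 2 conventional dendritic cell markers Cd209a fell, and of 2 erythroid markers Car2 rose and Hba-a1 fell. Ccr6 and Cd209a reached 5 FPKM in DNAM-1- libraries only and so had to differ.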

How the data were processed

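RNA was sequenced from 4 libraries, 1 a group. The deposited values are FPKM (fragments scaled to gene length and library size), per the file headers, and Bowtie2 2.2.5 and RSEM appear, with no role, in the submitters' processing notes. The genome build and annotation are not given in the sources used here. Files list only genes above 0, and a gene not listed was taken as 0. Of 17723 gene numbers 17668 matched a symbol in the RefSeq table of GRCm38.p6.

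Depth was estimated by fitting whole reads of an assumed 50 bases to values of single-transcript genes of 500 to 1500 bases, of which 69.8% to 74.1% lay within 0.1 of a whole read (up to 3.5 reads). Read numbers of members use GENCODE M21 transcript lengths, and the 95% intervals cover counting error only.

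Genes whose highest value was at least 5 FPKM were tested on log2(FPKM + 1) with limma 3.58.1 (R 4.3.3, mean-variance trend, two-sided, additive subset and spleen terms, 1 residual degree of freedom), after the fit was tested on simulated data. Its p-values set each mean difference against how far the subset difference changes between the 2 spleens (the interaction), with that spread moderated across genes. No replicate libraries enter them, and the spread may be technical. Members and lists were chosen with earlier results of these data known. Named genes were the members, Cd226, Ncr1 and Klrb1c, the 2 highest and 2 lowest coefficients of a list, Ly6 family genes from 1 FPKM, and the 3 nearest profiles of each member. Mpo, Ctsg, Cd34, Elane, Hoxa9, Rtp4, Ifit3, Cd48, Cd52, Hoxa10, Tnfrsf17, Klk1, Tcf4, Siglech, Ccr9 and the endothelial genes at 0 were named after their values were seen. Some genes that this rule names are not reported here. Alternatives were other pseudocounts, filters, scalings, no trend, and protein-coding genes only.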

Additional observations from a re-analysis of the deposited data

Results flagged for a closer look

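In 4 of the 6 genes the AML ratio had opposite signs in the 2 subsets, as it had in 40.2% of all genes tested. The difference of the log2 AML ratios, DNAM-1+ minus DNAM-1- cells, was 0.65 for Ly6a, 0.30 for Ly6d, 0.27 for Ly6e and -0.20 for Thy1. These differences were not tested, since each rests on 4 single libraries.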

How the results depend on the processing

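The subset calls of Thy1, Ly6d and Ly6a held in 8 of 9 alternatives each. With no filter on low values limma called no gene for the sort, 0 higher and 0 lower, nor for AML (0 and 0), and the adjusted p was 0.117 for Thy1 (coefficient 1.75), 0.117 for Ly6d (-2.25), 0.128 for Ly6a (-1.88) and 0.275 for Ly6e (-0.30). The Ly6e call was also lost with a pseudocount of 5 (-0.30, adjusted p = 0.0568), a filter of 1 FPKM (-0.30, 0.0917) and no mean-variance trend (-0.30, 0.153). Ly6c2 was called for AML with a filter of 20 FPKM (0.36, adjusted p = 0.0458), where Ly6c1 was not tested, and among protein-coding genes only (0.36, 0.0385). No other member changed side, and no coefficient changed sign in these 9 settings. Over all genes, against 667 higher and 760 lower for the sort, the trend-free fit called 321 higher and a filter of 20 FPKM 434 lower. Against 6 higher and 26 lower for AML, a filter of 20 FPKM gave 18 and 51, the median ratio scaling 17 and 67, protein-coding genes 26 and 81, no trend 1 and 4, a pseudocount of 5 gave 17 lower and a filter of 1 FPKM 5 lower. The cause was not tested.

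Leaving out 1 library leaves the ratio of 1 spleen or 1 subset, with no residual degree of freedom and no test. The subset value then ran from 1.65 to 1.84 for Thy1, -2.39 to -2.10 for Ly6d, -2.20 to -1.55 for Ly6a, -0.44 to -0.17 for Ly6e, -0.21 to -0.036 for Ly6c2 and 0.18 to 0.35 for Ly6c1. The AML value ran from -0.14 to 0.059 for Thy1, -0.57 to 0.077 for Ly6a, -0.22 to 0.0499 for Ly6e, -0.0073 to 0.29 for Ly6d, 0.27 to 0.45 for Ly6c2 and -0.34 to -0.18 for Ly6c1. The spleen term already pairs the subsets by spleen, and no further pairing could be fitted, since the labels give no replicate numbers and each group has 1 library. At the estimated depth, counting error limits Ly6c1 and Ly6a the most.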
